A study of Mus musculus with 24 samples.

Results

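The response of mouse ovarian cancer cells to loss of attachment was compared between a line edited at Ifngr1 (Ifngr1-KO) and its control line (sgNTC), both grown without interferon. Of the 24 RNA sequencing libraries of the series, the 12 that received PBS entered the comparison, with 3 libraries in each of 4 groups. The quantity measured for each gene was the log2 change on detachment in Ifngr1-KO cells minus the log2 change on detachment in sgNTC cells. The other 12 libraries, which received interferon-gamma (IFN-gamma), gave the same quantity from separate cultures.

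The groups were detached Ifngr1-KO cells, adherent Ifngr1-KO cells, detached sgNTC cells and adherent sgNTC cells, all derived from ID8 p53-/-, a mouse ovarian surface epithelial cancer line with p53 removed per its label. Detached cells grew in ultra-low attachment (ULA) plates, on which cells cannot adhere, and adherent cells on regular plates. Cultures received PBS, or IFN-gamma at 100 ng/ml, for the last 24 of 48 hours, and poly-A RNA was sequenced. Dead cells were removed from ULA wells only, so the handling step and the culture cannot be told apart. Each genotype was 1 line, so the edit and any other difference between the lines cannot be told apart either, and the differences below are called line differences. The labels number the libraries of a group as biological replicates 1 to 3.

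Cells attached to a substrate receive signals through integrins and the actin cytoskeleton that sustain growth factor signalling, entry into the cell cycle and lipid and protein synthesis. Loss of attachment removes these signals, and epithelial cells that cannot compensate stop dividing or die, a death called anoikis. Ovarian cancer cells shed into the peritoneal fluid survive in this state. In such cultures the supply of sterols is sensed by the SREBP factors, that of amino acids by the integrated stress response and its factor ATF4, and the load of unfolded secretory protein by the unfolded protein response.

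Libraries held 33494774 to 63154942 counts in the 12 PBS samples, and levels are given as CPM, counts scaled to a common library size with TMM factors. The edited gene Ifngr1, whose protein binds the ligand within the IFN-gamma receptor, had 14.5, 14.1 and 15.5 CPM in detached and 14.8, 16.7 and 15.4 CPM in adherent Ifngr1-KO cells, against 31.7, 37.4 and 37.7 CPM in detached and 42.3, 45.5 and 41.8 CPM in adherent sgNTC cells. All 6 Ifngr1-KO libraries lay below all 6 sgNTC libraries, and its own change on detachment differed between the lines by 0.19 ± 0.12 (SE) on the log2 scale, which was not called (adjusted p = 0.248). Principal components 1 and 2 accounted for 46.5% and 24.9% of the variance. The adherent Ifngr1-KO replicate 3 library stood apart from its group on the fourth component (1.72%), and without it 3999 genes were called different between the lines in place of 4068. Mitochondrially encoded genes took 3.64% to 3.87% of counts in detached and 2.19% to 2.45% in adherent Ifngr1-KO cells, against 5.09% to 5.66% in detached and 2.49% to 2.77% in adherent sgNTC cells. Mesothelial and epithelial markers summed to 5090 to 5245 CPM in detached and 2396 to 2702 CPM in adherent Ifngr1-KO cells, against 3627 to 3760 CPM in detached and 2746 to 2894 CPM in adherent sgNTC cells, with Krt19 highest and Epcam at 0. Macrophage markers summed to 29.9 to 34.2 CPM in detached and 15.4 to 17.0 CPM in adherent Ifngr1-KO cells. In sgNTC cells they summed to 19.0 to 19.9 CPM when detached and 14.9 to 16.8 CPM when adherent. Ptprc and Tyrobp were at 0. Cd68 averaged 17.9 CPM in detached Ifngr1-KO and 6.95 CPM in detached sgNTC cells, and Cd14 8.07 and 8.50 CPM. Lymphocyte markers summed to at most 4.16 CPM in any PBS library with Cd3e, Cd3d and Nkg7 at 0. Endothelial markers summed to 86.0 to 91.5 CPM in detached and 30.04 to 41.1 CPM in adherent Ifngr1-KO cells, against 48.2 to 52.9 CPM in detached and 16.1 to 19.3 CPM in adherent sgNTC cells, with Vwf highest except in adherent sgNTC cells, where Esam was. Fibroblast and pericyte markers summed to 101 to 105 CPM in detached and 34.4 to 41.7 CPM in adherent Ifngr1-KO cells, against 120 to 126 CPM in detached and 94.4 to 109 CPM in adherent sgNTC cells, with Lum at 0. Within that sum Dcn averaged 96.1 CPM in detached and 17.2 CPM in adherent Ifngr1-KO cells, against 97.3 CPM in detached and 47.7 CPM in adherent sgNTC cells. Col1a1 averaged 4.81 CPM in detached and 20.3 CPM in adherent Ifngr1-KO cells, against 21.8 CPM in detached and 52.9 CPM in adherent sgNTC cells, so that its detached means were the lower ones in both lines. The part of these shares in the results was not tested, and in RNA from whole cultures fewer cells of a kind and less RNA per cell cannot be told apart.

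Detachment moved most of the genes called in both lines the same way, 6902 of 7234, but often by different amounts. Of 14622 genes tested, 8870 (60.7%) changed on detachment in Ifngr1-KO cells, 4327 up (29.6%) and 4543 down (31.1%). In sgNTC cells 9446 (64.6%) changed, 4747 up (32.5%) and 4699 down (32.1%). A gene counts as called, and only then is described as rising, falling or differing, when the Benjamini-Hochberg adjusted p of edgeR's quasi-likelihood F test over all genes tested is under 0.05. Errors after ± are standard errors of log2 values, and gene positions are on GRCm38. The change itself differed between the lines for 4068 genes (27.8%), with 2426 (16.6%) higher in Ifngr1-KO cells and 1642 (11.2%) lower. Scaling by library totals in place of TMM factors turned the balance round, with 1706 higher and 2356 lower, so 42.0% of calls were higher in place of 59.6%. The difference exceeded 2-fold for 677 genes, 311 higher and 366 lower. Across the 14622 genes the changes in the 2 lines had a Pearson r of 0.70 and a Spearman rho of 0.72, a description of genes that share each library's depth and scaling.

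**Figure D1:**
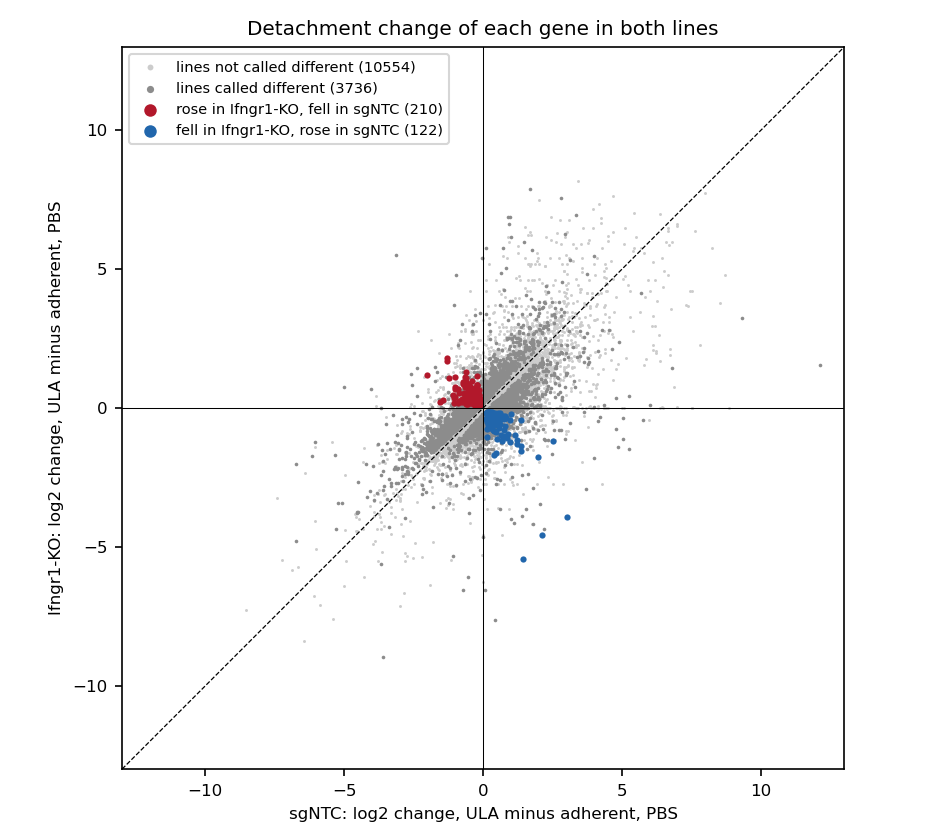
Log2 change on detachment (ULA minus adherent, PBS) of each of 14622 genes in sgNTC cells (x axis) and in Ifngr1-KO cells (y axis), with the dashed line marking equal change. Most genes lie along that line, while 210 genes (red) lie in the upper left and 122 (blue) in the lower right quadrant.

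The most frequent kind of line difference was a change in the same direction but of another size. Of the 4068 genes, 2095 changed in the same direction in both lines, and 1329 of these changed less in Ifngr1-KO cells and 766 more. The largest class held 894 genes that fell in both lines and fell less in Ifngr1-KO cells. Another 693 changed in Ifngr1-KO cells and were not called in sgNTC cells, 916 changed in sgNTC cells and were not called in Ifngr1-KO cells, and 32 were called in neither. Between the lines 7320 genes (50.1%) differed when detached and 6421 (43.9%) when adherent. For 1478 of the 4068 genes the lines differed in ULA and were not called different when adherent, and for 984 they differed when adherent and were not called different in ULA. In both cultures 1505 differed, and 551 of these were higher in Ifngr1-KO cells in one culture and lower in the other. Genes under 1 CPM in both cultures of a line carry little information on that line's change, and they numbered 53 for Ifngr1-KO cells, 21 for sgNTC cells and 90 in all 4 groups.

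Genes moved in opposite directions numbered 332 (2.27% of genes tested). They were 4.59% of the 7234 genes called in both detachment comparisons. Of them 210 (1.44%) rose on detachment in Ifngr1-KO cells and fell in sgNTC cells, and 122 (0.834%) did the reverse. For all 332 the line difference was called as well. The changes were mostly small. The median log2 change of the 210 was 0.31 in Ifngr1-KO and -0.33 in sgNTC cells, and that of the 122 was -0.38 in Ifngr1-KO and 0.37 in sgNTC cells. Both changes exceeded 0.5 for 24 of the 210 and 25 of the 122. Detached and adherent libraries did not overlap in either line for 187 of the 210 and 103 of the 122. Being called in both lines already favours such separation, and the share over all genes tested is not given. Both classes were defined by calls from these same libraries, so the counts describe them and are no separate evidence. Under library totals 131 genes rose in Ifngr1-KO and fell in sgNTC cells and 187 did the reverse, so which of the classes is larger depends on the scaling. Without the detached sgNTC replicate 1 library 81 genes fell in Ifngr1-KO and rose in sgNTC cells, in place of 122.

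Pthlh, Areg and Gprc5a were named by the rule among the 210 genes that rose in Ifngr1-KO and fell in sgNTC cells. Pthlh, which encodes parathyroid hormone-related protein (chr6:147252101-147264183), had 26.7, 23.8 and 24.9 CPM in detached and 13.1, 12.99 and 13.6 CPM in adherent Ifngr1-KO cells, against 7.64, 7.16 and 6.94 CPM in detached and 12.4, 11.7 and 11.6 CPM in adherent sgNTC cells. Detached Ifngr1-KO libraries were highest and detached sgNTC libraries lowest, with no overlap between cultures in either line. The log2 change was 0.93 ± 0.11 in Ifngr1-KO and -0.71 ± 0.11 in sgNTC cells, a difference of 1.64 ± 0.16 (adjusted p = 6.52e-10). Areg, the epidermal growth factor receptor ligand amphiregulin (chr5:91139599-91148432), had 38.9, 33.1 and 35.7 CPM in detached and 18.1, 21.7 and 27.99 CPM in adherent Ifngr1-KO cells, against 6.76, 8.75 and 8.48 CPM in detached and 16.1, 14.7 and 13.6 CPM in adherent sgNTC cells. All detached Ifngr1-KO libraries lay above the adherent ones, whose spread was wide, and all detached sgNTC libraries lay below theirs. Its change was 0.67 ± 0.13 in Ifngr1-KO and -0.90 ± 0.14 in sgNTC cells, a difference of 1.57 ± 0.19 (adjusted p = 1.17e-07). Gprc5a, an orphan G protein-coupled receptor induced by retinoic acid (chr6:135065651-135084709), had 109.8, 109 and 111 CPM in detached and 66, 67.1 and 62.2 CPM in adherent Ifngr1-KO cells, against 66.6, 58.6 and 63.2 CPM in detached and 101, 98.3 and 96.3 CPM in adherent sgNTC cells. Detached Ifngr1-KO and adherent sgNTC libraries were the high ones and the other 6 the low ones, and the lines differed by 1.4 ± 0.08 (adjusted p = 4.43e-15).

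Shb, Plau, Pif1, Fam71f1 and Mirt1 were named from the same 210 genes. Shb, an adaptor with an SH2 domain that couples receptor tyrosine kinases to their effectors, had 76.9, 88.5 and 82.6 CPM in detached and 41.4, 40.5 and 46.2 CPM in adherent Ifngr1-KO cells, against 32.2, 39.4 and 33.2 CPM in detached and 51.9, 56.3 and 55.03 CPM in adherent sgNTC cells. It differed by 1.59 ± 0.11 (adjusted p = 5.95e-13), rising in Ifngr1-KO and falling in sgNTC cells without overlap. Plau, the urokinase plasminogen activator, had 6.36, 5.62 and 8.23 CPM in detached and 4.28, 3.86 and 3.08 CPM in adherent Ifngr1-KO cells, against 2.63, 2.53 and 2.34 CPM in detached and 4.21, 4.39 and 3.803 CPM in adherent sgNTC cells. The detached Ifngr1-KO libraries were above all others and the detached sgNTC libraries below all others, a difference of 1.57 ± 0.26 (adjusted p = 1.58e-05). The DNA helicase gene Pif1 (1.71 ± 0.27, adjusted p = 1.11e-05) and Fam71f1 (1.59 ± 0.25, adjusted p = 5.93e-06) moved likewise, as did the non-coding RNA gene Mirt1 (1.68 ± 0.16, adjusted p = 3.21e-10), which had 21.5, 23.2 and 23.99 CPM in detached and 13.5, 15.5 and 13.7 CPM in adherent Ifngr1-KO cells, against 12.7, 13.5 and 9.96 CPM in detached and 22.6, 25.98 and 23.8 CPM in adherent sgNTC cells. Mirt1 libraries did not overlap between cultures in either line.

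**Figure D2:**
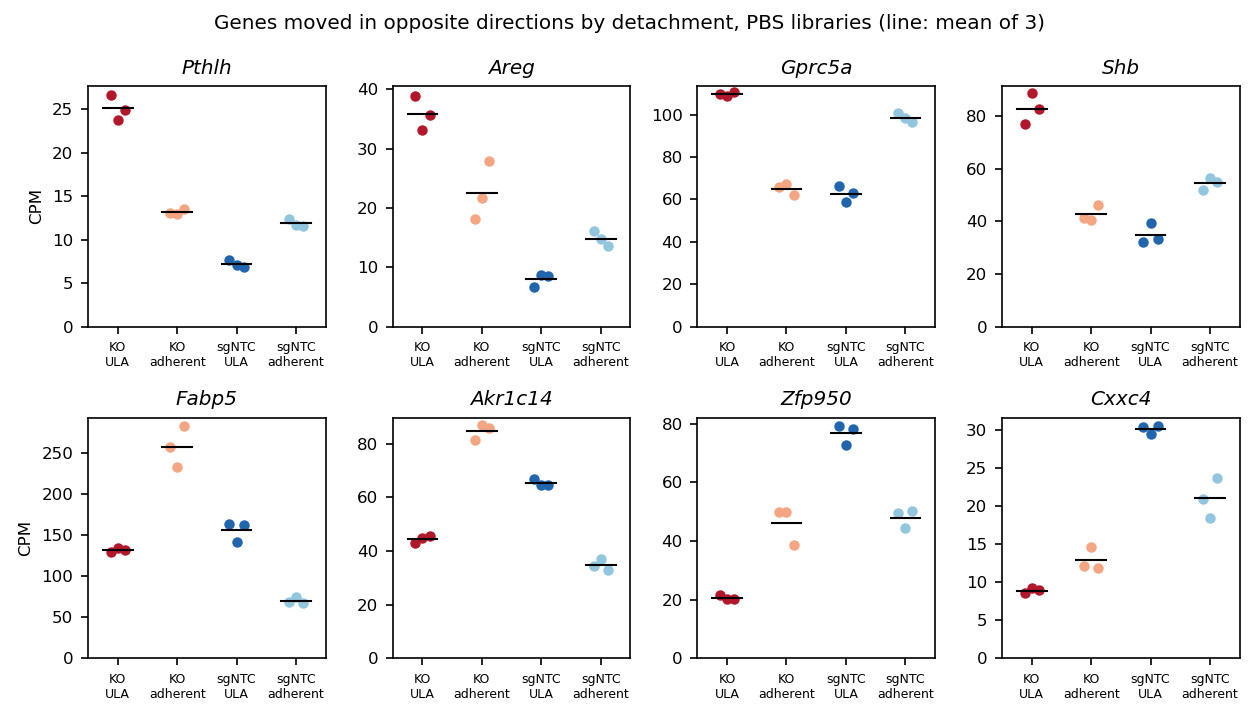
CPM of 8 genes in each of the 12 PBS libraries (points) with the mean of 3 (line); the y axis starts at 0. In the upper row the detached Ifngr1-KO libraries lie above the adherent ones and the detached sgNTC libraries below theirs, and in the lower row the order is reversed in both lines.

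Fabp5, Akr1c14, Adhfe1 and Mpv17l were named among the 122 genes that fell in Ifngr1-KO and rose in sgNTC cells. Fabp5, a cytosolic fatty acid-binding protein (chr3:10012548-10016607), had 129.8, 134 and 132 CPM in detached and 257, 232 and 282 CPM in adherent Ifngr1-KO cells, against 163, 141 and 162 CPM in detached and 69.05, 74.5 and 67.2 CPM in adherent sgNTC cells. Its adherent libraries were higher in Ifngr1-KO than in sgNTC cells and the detached libraries closer together, and the change was -0.96 ± 0.12 in Ifngr1-KO and 1.15 ± 0.12 in sgNTC cells, a difference of -2.11 ± 0.16 (adjusted p = 9.01e-09). Akr1c14, a reductase of ketosteroids (chr13:4049011-4090688), had 43.1, 45 and 45.6 CPM in detached and 81.3, 87 and 85.6 CPM in adherent Ifngr1-KO cells, against 66.6, 64.6 and 64.7 CPM in detached and 34.6, 37.1 and 32.97 CPM in adherent sgNTC cells. No culture overlapped the other in either line, and the difference was -1.83 ± 0.09 (adjusted p = 7.41e-17). The mitochondrial transhydrogenase gene Adhfe1 (-1.64 ± 0.31, adjusted p = 9.37e-05) and Mpv17l, a membrane protein gene (-1.33 ± 0.17, adjusted p = 1.54e-07), followed the same pattern.

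Zfp950, Cxxc4 and Mks1 were named from the same 122 genes. Zfp950, a zinc finger protein gene (chr19:61053840-61140840), had 21.5, 20.1 and 20.3 CPM in detached and 50.1, 49.8 and 38.6 CPM in adherent Ifngr1-KO cells, against 79.2, 72.8 and 78.3 CPM in detached and 49.4, 44.3 and 50.3 CPM in adherent sgNTC cells. Adherent libraries of both lines overlapped, while detached ones lay far apart, and the difference was -1.84 ± 0.12 (adjusted p = 2.42e-14). Cxxc4, an inhibitor of WNT signalling (chr3:134236484-134262161), had 8.56, 9.19 and 9.02 CPM in detached and 12.2, 14.6 and 11.9 CPM in adherent Ifngr1-KO cells, against 30.4, 29.5 and 30.6 CPM in detached and 21.04, 18.4 and 23.7 CPM in adherent sgNTC cells. Its level was higher in every sgNTC library than in any Ifngr1-KO library, and the change differed by -1.06 ± 0.14 (adjusted p = 3.92e-07). Mks1, a gene of the ciliary transition zone, differed by -0.93 ± 0.24 (adjusted p = 0.00319). The opposite genes described so far had no overlap between cultures in either line, which the naming rule required.

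Counts of list members called are to be read against the 16.6% of all genes tested that were higher and the 11.2% that were lower in Ifngr1-KO cells. Members of gene lists were named by a rule of smallest adjusted p. Cdc20, Kif11, Prc1, Dhcr7, Hmgcs1, Slc7a5, Slc3a2, Pfkm, Ccn1, Bcl2l11, Bmf and the opposite genes given by list are named beside them and were chosen after their values were seen.

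Mitotic genes fell on detachment in sgNTC cells and mostly did not in Ifngr1-KO cells. The mitosis list held 28 genes, all tested, and 26 were higher in Ifngr1-KO cells, where 16.6% of all genes tested were. Its median log2 change was 0.15 in Ifngr1-KO and -0.60 in sgNTC cells, and the median difference was 0.78, against 0.01 over all genes. On detachment 13 of the 28 rose and 6 fell in Ifngr1-KO cells, against 1 that rose and 24 that fell in sgNTC cells. Of the 28, 9 belonged to the opposite class, Mki67, Cdk1, Plk1, Aurka, Bub1b, Kif23, Nusap1, Prc1 and Hmmr. The mean log2 level of the list was 6.21 to 6.24 in detached and 6.06 to 6.13 in adherent libraries of Ifngr1-KO cells, against 5.50 to 5.67 in detached and 6.14 to 6.18 in adherent libraries of sgNTC cells. The detached sgNTC libraries stood apart below the other 9, and adherent levels were lower in Ifngr1-KO than in sgNTC cells for 11 members and higher for 6. Of all genes tested, 23.9% were lower and 20.1% higher in adherent Ifngr1-KO than in adherent sgNTC cells.

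Mki67, the marker of dividing cells known as Ki-67, had 419, 408 and 403 CPM in detached and 276, 267 and 258 CPM in adherent Ifngr1-KO cells, against 211, 212 and 232 CPM in detached and 327, 271 and 313 CPM in adherent sgNTC cells. It rose in Ifngr1-KO cells and fell in sgNTC cells without overlap, 0.62 ± 0.07 in Ifngr1-KO and -0.48 ± 0.07 in sgNTC cells, a difference of 1.09 ± 0.09 (adjusted p = 7.54e-11). Top2a, the topoisomerase that untangles sister chromatids, had 501, 499 and 510.05 CPM in detached and 489, 491 and 532 CPM in adherent Ifngr1-KO cells, against 273, 262 and 286 CPM in detached and 541, 478 and 516 CPM in adherent sgNTC cells. Its Ifngr1-KO cultures overlapped and its sgNTC cultures did not, and it differed by 0.90 ± 0.08 (adjusted p = 3.86e-10). The kinetochore protein gene Cenpf (difference 0.97 ± 0.09, adjusted p = 8.21e-10) rose in Ifngr1-KO cells and was not called in sgNTC cells, with a change of 0.01 ± 0.07. Hmmr, a hyaluronan receptor that also binds the spindle, differed by 0.96 ± 0.10 (adjusted p = 1.36e-08).

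In the DNA replication list 9 of 30 were higher in Ifngr1-KO cells and 1 lower (2 lower under library totals, and 0 without adherent Ifngr1-KO replicate 3, detached Ifngr1-KO replicate 1 or adherent sgNTC replicate 1), and the median change was -0.45 in Ifngr1-KO and -0.55 in sgNTC cells. Its levels were higher in Ifngr1-KO cells for 26 of 30 when detached (24.5% of all genes tested were) and for 26 of 30 when adherent (20.1% of all were). The replicative helicase subunit gene Mcm3 had 132, 138 and 137 CPM in detached and 178, 183 and 174 CPM in adherent Ifngr1-KO cells, against 77.5, 81.1 and 86.6 CPM in detached and 143, 144 and 143 CPM in adherent sgNTC cells. Its fall was smaller in Ifngr1-KO cells, by 0.41 ± 0.07 (adjusted p = 5.50e-05). Rrm1, a subunit of ribonucleotide reductase, rose in Ifngr1-KO cells and was not called in sgNTC cells, and differed by 0.44 ± 0.07 (adjusted p = 6.02e-06). Among 12 tested of 15 CDK inhibitors and cyclins D, 6 were higher in Ifngr1-KO cells. Ccnd1, the cyclin D1 gene that starts the cycle after growth factor signals, had 117, 121 and 121 CPM in detached and 195, 205 and 206 CPM in adherent Ifngr1-KO cells, against 45.2, 42.2 and 49.3 CPM in detached and 152, 152 and 163 CPM in adherent sgNTC cells. It fell in both lines, most in sgNTC cells, with a difference of 1.02 ± 0.08 (adjusted p = 3.53e-12), while the CDK inhibitor gene Cdkn1a rose in both and rose more in Ifngr1-KO cells (1.01 ± 0.25, adjusted p = 0.00547).

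Promoters of mitotic genes often carry the cell cycle genes homology region, a short element through which these genes are kept silent outside mitosis. Its letters TTTGAA, read on either strand, occurred in 16 of the 20 promoters available for the 26 mitosis genes called higher in Ifngr1-KO cells, and in 14.85% of the 10879 promoters of genes tested, a motif chosen after the gene values were seen. Over all 28 listed genes they occurred in 16 of the 22 promoters available. Windows ran from 250 bases before to 50 after the start in RefSeq GRCm38.p6. Stretches of 4 promoters, picked after the values were seen from those that hold the element, are given in lower case with the element in capitals. Whether the element has a part in the line difference was not tested. They lie at chr7:135716432-135716517, minus strand (Mki67), chr4:118437344-118437401, minus strand (Cdc20), chr19:37376323-37376381, plus strand (Kif11, where the element is on the other strand) and chr7:80294406-80294475, plus strand (Prc1).
Mki67: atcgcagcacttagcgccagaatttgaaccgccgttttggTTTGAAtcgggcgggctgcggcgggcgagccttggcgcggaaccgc
Cdc20: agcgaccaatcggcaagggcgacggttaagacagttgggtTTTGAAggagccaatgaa
Kif11: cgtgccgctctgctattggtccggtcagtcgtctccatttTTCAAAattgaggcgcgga
Prc1: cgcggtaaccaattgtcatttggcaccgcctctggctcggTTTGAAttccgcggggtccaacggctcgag
The first base of the element is 98 bases before the start in Mki67, 18 in Cdc20, 19 in Kif11 and 30 in Prc1. Mki67 has a further copy starting 116 bases before the start, in lower case above. Beside Mki67, the change of Cdc20, which activates the anaphase-promoting complex, was 0.13 ± 0.09 in Ifngr1-KO and -0.70 ± 0.09 in sgNTC cells, that of the spindle motor gene Kif11 0.05 ± 0.06 in Ifngr1-KO and -0.49 ± 0.06 in sgNTC cells, and that of Prc1, which bundles the midzone, 0.43 ± 0.07 in Ifngr1-KO and -0.39 ± 0.07 in sgNTC cells. The AP-1 letters TGANTCA occurred in 23 of 156 promoters (14.7%) of genes that rose in Ifngr1-KO and fell in sgNTC cells, in 4 of 98 of the reverse class, and in 6.82% of all promoters. Other strings searched went either way in those 156 promoters. CACGTG occurred in 17.95% against 11.18% of all promoters, ACGTG in 35.26% against 28.26% and GGAATG in 12.82% against 14.98%. These shares were not tested.

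Cholesterol synthesis genes fell on detachment in both lines, and fell further in sgNTC cells. Of the 25 listed, all tested, 22 were higher in Ifngr1-KO cells. The median log2 change was -0.65 in Ifngr1-KO and -1.86 in sgNTC cells, and the median difference 0.96. In Ifngr1-KO cells 20 fell and 4 rose, and in sgNTC cells 23 fell and 1 rose. The lines differed in both cultures, with 22 of 25 lower in adherent Ifngr1-KO than in adherent sgNTC cells (23.9% of all genes were) and 19 of 25 higher in detached Ifngr1-KO than in detached sgNTC cells (24.5% of all genes were). Mean log2 levels of the list were 5.47 to 5.64 in detached and 6.18 to 6.25 in adherent libraries of Ifngr1-KO cells, against 5.00 to 5.15 in detached and 6.71 to 6.76 in adherent libraries of sgNTC cells.

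Sqle, the squalene epoxidase, had 248, 259 and 266 CPM in detached and 328, 340.4 and 344 CPM in adherent Ifngr1-KO cells, against 104, 113 and 115 CPM in detached and 398, 410.2 and 405 CPM in adherent sgNTC cells. Its fall was smaller in Ifngr1-KO cells by 1.48 ± 0.07 (adjusted p = 2.38e-17). Lss, which closes the sterol rings, changed by -1.53 in Ifngr1-KO and -3.03 in sgNTC cells on the log2 scale, a difference of 1.5 ± 0.10 (adjusted p = 5.15e-13). Dhcr7, which acts late in the pathway, rose in Ifngr1-KO and fell in sgNTC cells, with changes of 0.55 ± 0.09 in Ifngr1-KO and -0.37 ± 0.08 in sgNTC cells.

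Fatty acid synthesis genes, which share the SREBP factors, moved in part with them. Of 15 listed, all tested, 9 were higher in Ifngr1-KO cells and 2 lower, with a median change of 0.17 in Ifngr1-KO and -0.29 in sgNTC cells. Scd2, a stearoyl-CoA desaturase, had 6670.1, 6822 and 7001 CPM in detached and 6122, 6111 and 6013 CPM in adherent Ifngr1-KO cells, against 2585, 2987 and 2873 CPM in detached and 5394, 4906 and 5393 CPM in adherent sgNTC cells. It rose slightly in Ifngr1-KO and fell in sgNTC cells, a difference of 1.06 ± 0.08 (adjusted p = 1.85e-12). Scd1 had 579.8, 592 and 625 CPM in detached and 572, 576 and 567 CPM in adherent Ifngr1-KO cells, against 385, 423 and 393 CPM in detached and 755, 736 and 727 CPM in adherent sgNTC cells, and differed by 0.95 ± 0.07 (adjusted p = 4.78e-13). Elovl6, which lengthens palmitate, fell in both lines and differed by 1.25 ± 0.12 (adjusted p = 7.52e-09). Srebf1, the SREBP1 gene itself, rose in Ifngr1-KO and fell in sgNTC cells, 0.46 ± 0.05 in Ifngr1-KO and -0.17 ± 0.05 in sgNTC cells, a difference of 0.62 ± 0.07 (adjusted p = 1.61e-08).
Of the sterol genes, Hmgcs1, an early enzyme of the pathway, holds the letters TCACNCCAC of the sterol regulatory element in its promoter window (chr13:119690174-119690262, plus strand), shown because it is the textbook element of this pathway.
Hmgcs1: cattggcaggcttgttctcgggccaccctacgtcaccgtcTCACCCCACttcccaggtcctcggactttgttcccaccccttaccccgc
That string occurred in 1 of the 17 promoters available for the 25 sterol genes and in 1.333% of all promoters, and Hmgcs1 itself changed by 1.04 ± 0.07 in Ifngr1-KO and 0.40 ± 0.07 in sgNTC cells.

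**Figure D3:**
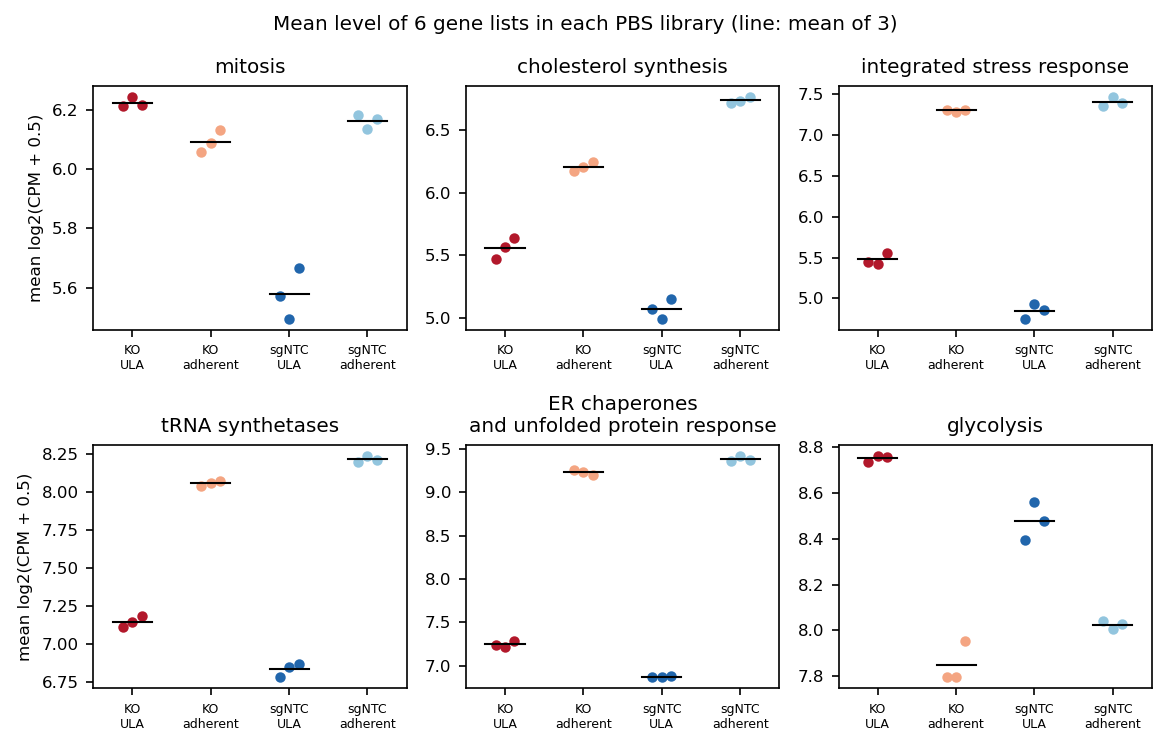
Mean log2(CPM + 0.5) of the tested genes of 6 lists in each PBS library (points) with the mean of 3 (line); the y axes do not start at 0. In all 6 panels the detached Ifngr1-KO libraries lie above the detached sgNTC libraries, and in 5 of them, all but glycolysis, the detached sgNTC libraries are the lowest of the 12.

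Genes of the integrated stress response, by which cells short of amino acids raise amino acid transport and synthesis through ATF4, fell in both lines and less in Ifngr1-KO cells. Of 30 listed 29 were tested, and 22 were higher and 2 lower in Ifngr1-KO cells. The 2 lower became 0 or 1 when any PBS library was left out other than adherent Ifngr1-KO replicate 3 or adherent sgNTC replicate 3, and 1 under the replicate block, without the filter and with only the compared groups fitted. The median change of the list was -1.84 in Ifngr1-KO and -2.66 in sgNTC cells, a median difference of 0.75. In detached cells 20 of 29 were higher and 3 lower in Ifngr1-KO than in sgNTC cells, and in adherent cells 2 were higher and 7 lower. Of all genes tested, 24.5% were higher and 25.6% lower in detached cells, and 20.1% higher and 23.9% lower in adherent cells. Slc7a1, the cationic amino acid transporter, had 244, 236 and 240.5 CPM in detached and 892, 897 and 792 CPM in adherent Ifngr1-KO cells, against 94.4, 102 and 102 CPM in detached and 816, 782 and 836 CPM in adherent sgNTC cells. Adherent libraries of both lines overlapped and detached ones did not, and the lines differed by 1.19 ± 0.08 (adjusted p = 1.23e-13). Asns, asparagine synthetase, had 160.0, 148 and 154 CPM in detached and 539, 540.1 and 538 CPM in adherent Ifngr1-KO cells, against 62.3, 65.4 and 77.1 CPM in detached and 511, 532 and 508 CPM in adherent sgNTC cells. It fell in both lines, with a difference of 1.11 ± 0.08 (adjusted p = 3.14e-12). Chac1, which degrades glutathione, had 13.1, 13.02 and 15.9 CPM in detached and 139.5, 149 and 157 CPM in adherent Ifngr1-KO cells, against 3.52, 4.55 and 3.63 CPM in detached and 126, 144 and 122 CPM in adherent sgNTC cells. Its fall was the steeper in sgNTC cells, by 1.66 ± 0.13 (adjusted p = 8.46e-12). Cebpb, a transcription factor that pairs with ATF4, was not called in Ifngr1-KO cells (0.10 ± 0.07) and fell in sgNTC cells (-1.04 ± 0.07), a difference of 1.14 ± 0.09 (adjusted p = 1.96e-11).

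Slc7a11, the cystine importer that feeds glutathione synthesis (chr3:49892526-50443614), had the largest difference of that list. It had 107, 102 and 103 CPM in detached and 276, 268 and 227 CPM in adherent Ifngr1-KO cells, against 18.9, 24.9 and 24.6 CPM in detached and 324, 303 and 318 CPM in adherent sgNTC cells. The 3 detached sgNTC libraries were the lowest by a wide margin, and the change was -1.3 ± 0.17 in Ifngr1-KO and -3.8 ± 0.19 in sgNTC cells, a difference of 2.49 ± 0.24 (adjusted p = 6.33e-07). The transporter subunit genes Slc7a5 and Slc3a2, which together import leucine, differed by 1.2 ± 0.11 and 0.90 ± 0.09. Slc7a5 was not called in Ifngr1-KO cells (-0.02 ± 0.08) and fell in sgNTC cells (-1.22 ± 0.08).

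The tRNA synthetases, which load amino acids for translation and are partly ATF4 targets, moved in the same way. Of 20 listed, all tested, 17 were higher in Ifngr1-KO cells, with a median change of -0.84 in Ifngr1-KO and -1.53 in sgNTC cells and a median difference of 0.51. In each line 19 of 20 fell. Aars, the alanine enzyme, had 363, 346 and 371 CPM in detached and 595, 594 and 572 CPM in adherent Ifngr1-KO cells, against 245, 261 and 281 CPM in detached and 696, 727 and 689.7 CPM in adherent sgNTC cells. Adherent libraries were higher in sgNTC cells and detached ones lower, a difference of 0.72 ± 0.07 (adjusted p = 1.46e-09). Tars differed by 0.66 ± 0.07 (adjusted p = 2.84e-09), Sars by 0.75 ± 0.08 (adjusted p = 1.18e-08) and Gars by 0.65 ± 0.07 (adjusted p = 2.01e-08). Ribosome biogenesis genes, needed to build new ribosomes, were higher in Ifngr1-KO cells for 17 of 25 and lower for 1, with a median change of -1.09 in Ifngr1-KO and -1.39 in sgNTC cells. Among them Ddx21, a nucleolar helicase, had 102, 101 and 102 CPM in detached and 223, 221 and 206 CPM in adherent Ifngr1-KO cells, against 137, 135 and 139 CPM in detached and 383, 384 and 393 CPM in adherent sgNTC cells, and differed by 0.41 ± 0.07 (adjusted p = 1.53e-05). Polr1a, the largest subunit of RNA polymerase I, was the member lower in Ifngr1-KO cells (-0.48 ± 0.08, adjusted p = 3.95e-05), since it rose in sgNTC cells.

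The combined C/EBP and ATF element, written here as TGATGNAA, occurred in 8 of the 19 promoters available for the 22 stress response genes called higher, in 5 of 9 for the called tRNA synthetases and in 2.96% of all promoters. Over all members tested it occurred in 5 of 12 promoters of the tRNA synthetases and in 8 of 23 of the stress response list. Stretches of 3 promoters are shown, picked from those that hold the element for genes with some of the largest differences of the list. Slc7a1 and Cebpb differed more than Asns and have no such stretch to show. They are chr6:7693210-7693272, minus strand (Asns), chr3:50443632-50443719, minus strand (Slc7a11) and chr2:119351009-119351096, plus strand (Chac1, element on the other strand), with the element in capitals.
Asns: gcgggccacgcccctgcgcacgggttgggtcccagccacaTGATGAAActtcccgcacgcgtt
Slc7a11: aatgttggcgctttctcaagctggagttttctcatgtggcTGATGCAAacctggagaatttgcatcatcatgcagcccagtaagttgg
Chac1: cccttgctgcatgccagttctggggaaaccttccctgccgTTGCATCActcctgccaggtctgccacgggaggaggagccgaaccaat
The first base of the element lies 23 bases before the start in Asns, 66 in Slc7a11 and 193 in Chac1, and Slc7a11 has a further copy on the other strand 47 bases before its start.

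Chaperones and folding enzymes of the endoplasmic reticulum (ER), the targets of the unfolded protein response, fell steeply in both lines. Of 24 listed, all tested, 17 were higher in Ifngr1-KO cells, while 23 fell in Ifngr1-KO and 24 in sgNTC cells. The median change was -1.95 in Ifngr1-KO and -2.49 in sgNTC cells, and the median difference 0.32. Hspa5, the master chaperone BiP, had 1397, 1403 and 1529 CPM in detached and 10010.1, 9709 and 10271 CPM in adherent Ifngr1-KO cells, against 795, 769.6 and 784 CPM in detached and 9557, 9368 and 9239 CPM in adherent sgNTC cells. Adherent levels were close and detached ones did not overlap, a difference of 0.79 ± 0.07 (adjusted p = 1.56e-10). Hsp90b1 differed by 0.62 ± 0.07 (adjusted p = 1.62e-08), Creld2 by 0.75 ± 0.09 (adjusted p = 5.07e-08) and Dnajb11, a co-chaperone of BiP, by 0.53 ± 0.07 (adjusted p = 7.50e-07). Derl3, a channel component of ER-associated degradation, had 0.235, 0.0766 and 0.102 CPM in detached and 0.209, 0.454 and 0.282 CPM in adherent Ifngr1-KO cells, against 0.423, 0.542 and 0.604 CPM in detached and 30.8, 36.9 and 35.6 CPM in adherent sgNTC cells. It was high in adherent sgNTC cells alone, and its change was -1.21 ± 0.67 in Ifngr1-KO and -6.06 ± 0.30 in sgNTC cells, of which the first was not called. The difference was 4.85 ± 0.95 (adjusted p = 0.000407).

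The ER stress element, searched on both strands as CCAAT and CCACG with 9 bases of any kind between them, occurred in 7 of the 15 promoters available for the 17 called genes and in 0.1655% of all promoters, and was likewise chosen after the values were seen. It occurred in 9 of the 20 promoters available for all 24 listed genes, so it was about as frequent in the whole list as among the called genes. Stretches of 3 are shown, Hspa5 and Calr for their level and Derl3 for its difference, at chr2:34771985-34772083, plus strand (Hspa5), chr8:84847035-84847133, minus strand (Calr) and chr10:75893202-75893300, plus strand (Derl3). The element is in capitals and lies on the other strand in Calr and Derl3.
Hspa5: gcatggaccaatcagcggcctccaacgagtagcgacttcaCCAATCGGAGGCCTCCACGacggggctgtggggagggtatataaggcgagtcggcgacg
Calr: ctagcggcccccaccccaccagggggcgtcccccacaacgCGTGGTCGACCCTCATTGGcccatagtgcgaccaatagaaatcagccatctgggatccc
Derl3: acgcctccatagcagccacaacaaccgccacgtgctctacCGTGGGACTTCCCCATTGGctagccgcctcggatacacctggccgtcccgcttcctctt
Its first base is 65 bases before the start in Hspa5, 162 in Calr and 156 in Derl3. Calr, the lectin chaperone calreticulin, had 988, 971 and 1051 CPM in detached and 4300.4, 3884 and 3588 CPM in adherent Ifngr1-KO cells, against 775, 742 and 750.4 CPM in detached and 3983, 4332 and 4021 CPM in adherent sgNTC cells, and differed by 0.48 ± 0.08 (adjusted p = 3.67e-05).

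Glycolysis genes rose on detachment more in Ifngr1-KO cells. Of 19 listed, all tested, 14 were higher and 1 lower, and the median change was 0.90 in Ifngr1-KO and 0.38 in sgNTC cells. In Ifngr1-KO cells 17 rose, against 12 in sgNTC cells. Aldoa is annotated as 2 features under its symbol, and the feature with most counts was used. Pgk1, phosphoglycerate kinase, had 3731, 3828 and 3969.6 CPM in detached and 2308, 2345 and 2688 CPM in adherent Ifngr1-KO cells, against 2894, 3135 and 2951 CPM in detached and 2711, 2693 and 2718 CPM in adherent sgNTC cells. The detached Ifngr1-KO libraries were highest, and the difference was 0.51 ± 0.08 (adjusted p = 1.08e-05). Pfkp, the platelet isoform of phosphofructokinase, rose in both lines and differed by 0.57 ± 0.10 (adjusted p = 4.40e-05), Aldoc by 0.92 ± 0.15 (adjusted p = 6.81e-05) and Eno1, enolase, by 0.45 ± 0.09 (adjusted p = 0.000104). The member lower in Ifngr1-KO cells was Pfkm, the muscle isoform (-0.40 ± 0.08, adjusted p = 0.000453). The adherent Ifngr1-KO replicate 3 library was the highest of its group for this list, as the plot of list levels shows, and without that library the count was again 14 of 19.

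Targets of hypoxia-inducible factor overlap with glycolysis in function. Of 24 listed 23 were tested and 8 were higher in Ifngr1-KO cells (13 without the filter on low counts), with a median change of 1.33 in Ifngr1-KO and 0.87 in sgNTC cells. Car12, a carbonic anhydrase, had 255, 229 and 236 CPM in detached and 43.6, 45.4 and 48.6 CPM in adherent Ifngr1-KO cells, against 148, 163 and 141 CPM in detached and 64.7, 66.3 and 70.6 CPM in adherent sgNTC cells. It rose in both lines, further in Ifngr1-KO cells, by 1.22 ± 0.10 (adjusted p = 1.20e-11). Hilpda, a lipid droplet protein, had 145, 139 and 137 CPM in detached and 24.5, 21.6 and 28.3 CPM in adherent Ifngr1-KO cells, against 53.8, 86.1 and 50.8 CPM in detached and 36.2, 34.6 and 33.1 CPM in adherent sgNTC cells, with 1 detached sgNTC library above the other 2, and differed by 1.63 ± 0.33 (adjusted p = 0.00115). Pfkfb3, an activator of phosphofructokinase, differed by 1.26 ± 0.18 (adjusted p = 6.75e-06) and Egln3, an oxygen-sensing hydroxylase, by 0.86 ± 0.17 (adjusted p = 0.000661). In the glucose sensing list 3 of 10 were higher and 2 lower. Txnip, an inhibitor of glucose uptake, had 122, 111 and 111 CPM in detached and 7.46, 5.18 and 7.03 CPM in adherent Ifngr1-KO cells, against 507, 418 and 430.3 CPM in detached and 9.33, 9.32 and 7.36 CPM in adherent sgNTC cells. It rose in both lines and further in sgNTC cells, by -1.56 ± 0.29 (adjusted p = 0.00052), and its relative Arrdc4 rose in sgNTC cells and was not called in Ifngr1-KO cells (-1.93 ± 0.35, adjusted p = 5.36e-05). The pentose phosphate enzymes Pgd (0.45 ± 0.06, adjusted p = 5.29e-07) and Tkt (0.46 ± 0.07, adjusted p = 1.70e-06) rose in Ifngr1-KO and fell in sgNTC cells.

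**Figure D4:**
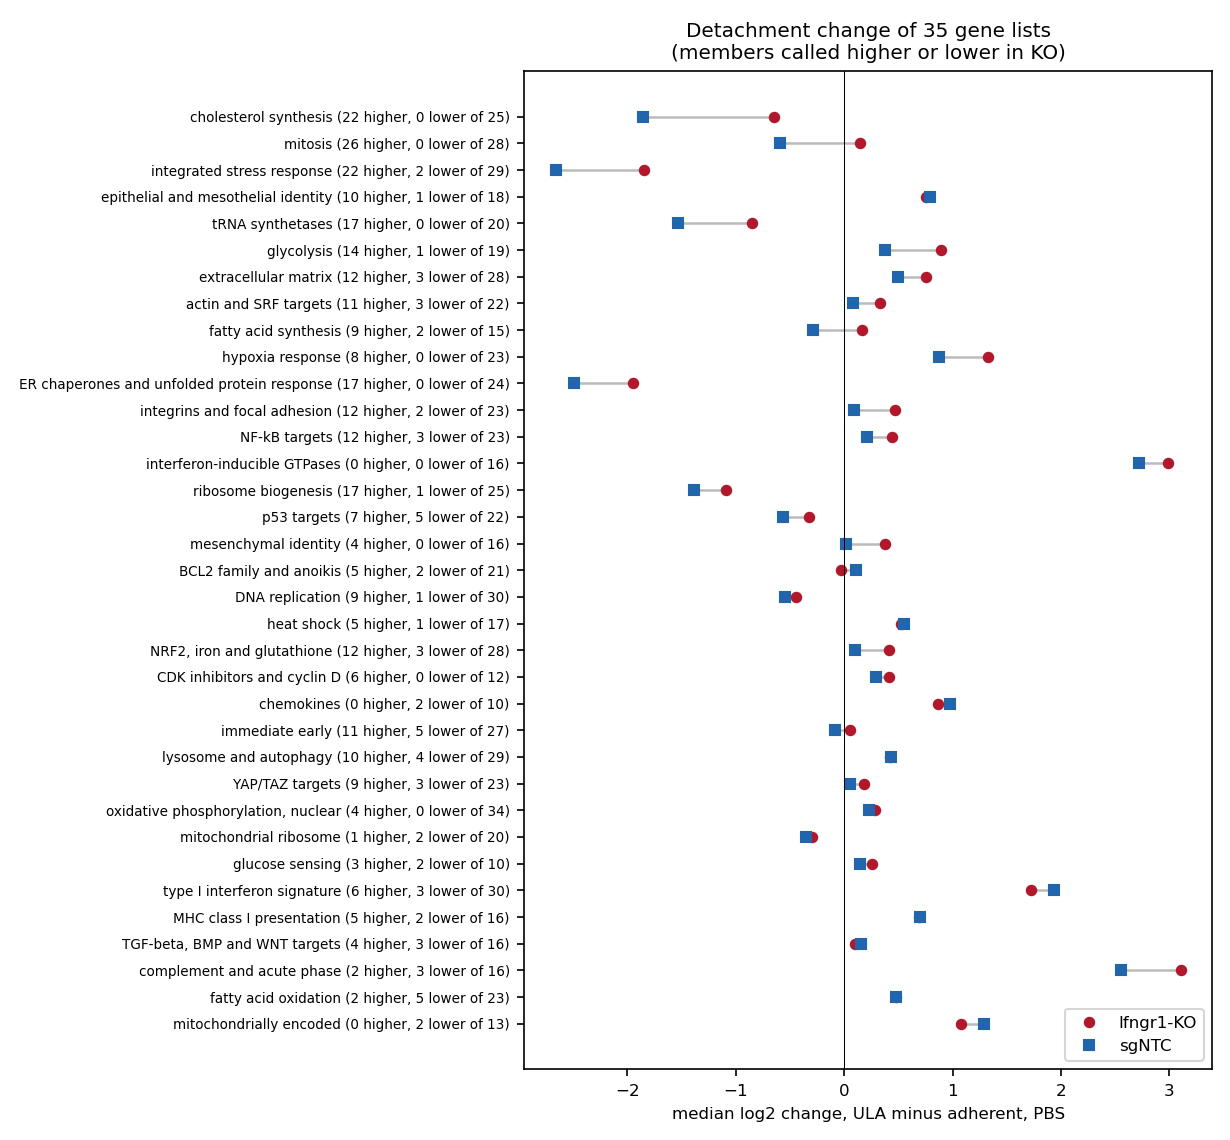
Median log2 change on detachment (ULA minus adherent, PBS) of the tested members of 35 gene lists in Ifngr1-KO (circles) and sgNTC cells (squares), ordered by the median of the members' differences; brackets give members called higher or lower. Cholesterol synthesis, mitosis and the integrated stress response have the largest median differences (0.96, 0.78 and 0.75), and the mitosis, fatty acid synthesis and immediate early medians lie above 0 in Ifngr1-KO and below 0 in sgNTC cells.

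Integrins and focal adhesion genes, the receptors and scaffolds by which cells grip the matrix, were higher in Ifngr1-KO cells for 12 of 23 tested (26 listed) and lower for 2. The median change was 0.47 in Ifngr1-KO and 0.09 in sgNTC cells. Itga3, the laminin receptor subunit alpha 3, had 674, 662 and 678 CPM in detached and 341, 347 and 324 CPM in adherent Ifngr1-KO cells, against 321, 307 and 287 CPM in detached and 421, 395 and 407 CPM in adherent sgNTC cells. It rose in Ifngr1-KO and fell in sgNTC cells without overlap, a difference of 1.41 ± 0.08 (adjusted p = 5.60e-15). Itga5, the fibronectin receptor subunit, had 199, 191 and 184 CPM in detached and 76.8, 87.96 and 86.01 CPM in adherent Ifngr1-KO cells, against 78.6, 84.4 and 72.1 CPM in detached and 79.2, 74.1 and 87.8 CPM in adherent sgNTC cells. It rose in Ifngr1-KO cells and was not called in sgNTC cells (-0.03 ± 0.07), a difference of 1.23 ± 0.10 (adjusted p = 1.38e-11). Itgb1, their shared partner, differed by 0.44 ± 0.06 (adjusted p = 2.12e-06), and Itgb3, the partner of alpha V, rose in both lines with a difference of 0.68 ± 0.10 (adjusted p = 5.41e-06).

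Matrix genes were higher for 12 and lower for 3 of 28 tested (38 listed), with a median change of 0.76 in Ifngr1-KO and 0.50 in sgNTC cells. Fbln2, the matrix glycoprotein fibulin 2, had 590.5, 577 and 597 CPM in detached and 160.2, 175 and 181 CPM in adherent Ifngr1-KO cells, against 375, 438 and 375 CPM in detached and 288, 282 and 279 CPM in adherent sgNTC cells. It rose in both lines and further in Ifngr1-KO cells, by 1.29 ± 0.08 (adjusted p = 8.66e-14). The small proteoglycan genes parted, as Bgn (biglycan) fell in both lines and fell less in Ifngr1-KO cells (0.87 ± 0.08, adjusted p = 7.68e-11), and Dcn (decorin) rose in both and rose more in Ifngr1-KO cells (1.45 ± 0.15, adjusted p = 5.24e-08). Dcn is also a fibroblast marker, and in detached cells the highest of that list. Lama5, a laminin chain bound by alpha 3 integrin, rose in Ifngr1-KO cells and was not called in sgNTC cells (-0.04 ± 0.07), a difference of 0.75 ± 0.10 (adjusted p = 3.08e-07).

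Actin and serum response factor targets were higher for 11 and lower for 3 of 22 tested (26 listed). The actin cross-linker gene Flna had 1579, 1562 and 1569 CPM in detached and 1273, 1368 and 1241 CPM in adherent Ifngr1-KO cells, against 984, 938 and 928 CPM in detached and 1303, 1285 and 1331 CPM in adherent sgNTC cells. It rose in Ifngr1-KO and fell in sgNTC cells, a difference of 0.74 ± 0.07 (adjusted p = 9.65e-11). Tagln2 differed by 0.72 ± 0.08 (adjusted p = 2.23e-08), Myh9, the heavy chain of non-muscle myosin, by 0.44 ± 0.06 (adjusted p = 1.63e-06) and Tpm4, a tropomyosin, by 0.51 ± 0.08 (adjusted p = 5.75e-06). YAP and TAZ targets, which report tension and spreading, were split, with 9 of 23 higher and 3 lower and medians of 0.19 in Ifngr1-KO and 0.06 in sgNTC cells. Ankrd1 had 41.5, 42.6 and 41.2 CPM in detached and 188, 191 and 188 CPM in adherent Ifngr1-KO cells, against 28.6, 30.6 and 31.5 CPM in detached and 263, 269.9 and 252 CPM in adherent sgNTC cells. Its fall was smaller in Ifngr1-KO cells, by 0.94 ± 0.07 (adjusted p = 1.33e-12), while Ccn1 fell more in Ifngr1-KO cells (-0.84 ± 0.13, adjusted p = 1.31e-05). Wwc1, a scaffold of the Hippo pathway, differed by 0.82 ± 0.07 (adjusted p = 1.21e-10) and Crim1 by 0.77 ± 0.08 (adjusted p = 1.93e-09).

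Immediate early genes and feedback genes of ERK signalling were higher for 11 and lower for 5 of 27 tested. Fosl1, an AP-1 subunit, had 8.399, 9.603 and 9.75 CPM in detached and 24.1, 20.1 and 20.8 CPM in adherent Ifngr1-KO cells, against 3.18, 5.396 and 4.23 CPM in detached and 38.9, 37.5 and 39.1 CPM in adherent sgNTC cells. It fell in both lines, and the difference was 1.96 ± 0.17 (adjusted p = 8.08e-11). Spry4, an inhibitor of receptor tyrosine kinase signalling, had 4.095, 4.32 and 4.84 CPM in detached and 11.5, 11.4 and 13.6 CPM in adherent Ifngr1-KO cells, against 4.13, 5.09 and 4.67 CPM in detached and 37.99, 35.6 and 38.2 CPM in adherent sgNTC cells. Detached libraries of both lines overlapped and adherent ones lay apart, and the lines differed by 1.55 ± 0.15 (adjusted p = 5.38e-10). The 5 lower became 3 without adherent Ifngr1-KO replicate 1 or 3, adherent sgNTC replicate 2 or detached sgNTC replicate 1 or 2. Dusp6, a phosphatase of ERK, differed by 0.73 ± 0.09 (adjusted p = 1.63e-07), and Dusp4, another, rose in Ifngr1-KO and fell in sgNTC cells, by 1.14 ± 0.13 (adjusted p = 3.95e-07).

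Mesothelial and epithelial identity genes were higher for 10 and lower for 1 of 18 tested (25 listed). The median of the members' differences was 0.51, although the list's median change was 0.75 in Ifngr1-KO and 0.80 in sgNTC cells, the other way round. Msln, the mesothelial surface antigen mesothelin, had 578, 555 and 579 CPM in detached and 558, 558 and 598 CPM in adherent Ifngr1-KO cells, against 307, 313 and 299 CPM in detached and 663, 682 and 664 CPM in adherent sgNTC cells. Ifngr1-KO cultures overlapped, detached sgNTC libraries were lowest, and the difference was 1.13 ± 0.07 (adjusted p = 3.68e-15). Upk1b, a uroplakin, fell in both lines and differed by 1.22 ± 0.07 (adjusted p = 8.28e-15). Wt1, the mesothelial transcription factor, and Krt19, a simple epithelial keratin, rose in both and rose more in Ifngr1-KO cells, by 0.54 ± 0.08 (adjusted p = 2.52e-06) and 0.91 ± 0.14 (adjusted p = 3.15e-05). In the mesenchymal list 4 of 16 tested were higher, where 16.6% of all genes were, the N-cadherin gene Cdh2 (0.47 ± 0.08, adjusted p = 1.27e-05) and Tgfb1 (0.45 ± 0.10, adjusted p = 0.000661) among them.

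In the BCL2 family and anoikis list 5 of 21 tested (26 listed) were higher and 2 lower, shares near those of all genes tested (16.6% and 11.2%). Bcl2l1, which encodes the survival protein BCL-XL, had 120.4, 128 and 135 CPM in detached and 134, 124 and 133 CPM in adherent Ifngr1-KO cells, against 84.4, 80.2 and 77.95 CPM in detached and 149.7, 148 and 146 CPM in adherent sgNTC cells. It was not called in Ifngr1-KO cells (-0.03 ± 0.08) and fell in sgNTC cells, a difference of 0.84 ± 0.11 (adjusted p = 3.79e-07). Bcl2 fell in both lines and fell less in Ifngr1-KO cells (0.77 ± 0.11, adjusted p = 2.07e-06). Bak1, which permeabilises mitochondria in apoptosis, was higher (0.63 ± 0.10, adjusted p = 7.27e-06), as was the death-associated kinase gene Dapk2 (0.81 ± 0.16, adjusted p = 0.000335). The members lower in Ifngr1-KO cells were Bcl2l11 (-0.47 ± 0.10, adjusted p = 0.000537) and Bmf (-0.54 ± 0.13, adjusted p = 0.00168), the BH3-only death genes BIM and BMF, which rose in both lines. Bmf had 47.6, 51.2 and 55.2 CPM in detached and 9.68, 11.01 and 11.2 CPM in adherent Ifngr1-KO cells, against 124, 122 and 108 CPM in detached and 18.1, 13.9 and 18.4 CPM in adherent sgNTC cells. Of p53 targets 7 of 22 tested were higher and 5 lower, in cells labelled p53-/-. The members with the smallest adjusted p were Perp (0.63 ± 0.08, adjusted p = 2.14e-07), Mdm2 (0.85 ± 0.11, adjusted p = 1.41e-06), Btg2 (-0.61 ± 0.09, adjusted p = 1.43e-06) and Plk2 (0.57 ± 0.08, adjusted p = 2.07e-06). Trp53 reads were present at 16.4 to 22.6 CPM in detached and 28.8 to 35.5 CPM in adherent Ifngr1-KO cells, against 13.8 to 16.05 CPM in detached and 31.9 to 33.4 CPM in adherent sgNTC cells, and its fall was smaller in Ifngr1-KO cells by 0.41 ± 0.13 (adjusted p = 0.0173), a call lost under library totals (adjusted p = 0.0821) and without the detached Ifngr1-KO replicate 1 library (0.081), with adjusted p values from edgeR.

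Interferon-related genes rose on detachment in both lines. Among 16 tested of 17 interferon-inducible GTPases 13 rose in each line, with a median change of 2.99 in Ifngr1-KO and 2.72 in sgNTC cells. The change differed between the lines for 0 of 16 by edgeR, 2 had an unadjusted p under 0.05, DESeq2 called 1 higher and 1 lower, and 3 were higher without the filter on low counts. In the type I signature 28 of 30 rose in each line, with a median change of 1.73 in Ifngr1-KO and 1.93 in sgNTC cells, and 6 were higher and 3 lower in Ifngr1-KO cells (5 lower under library totals, 6 without the filter). The 3 lower became 1 without adherent sgNTC replicate 2 or 3 or detached sgNTC replicate 3. Parp14 had 13.3, 14.1 and 14.5 CPM in detached and 1.17, 1.36 and 0.924 CPM in adherent Ifngr1-KO cells, against 27.2, 23.7 and 25.3 CPM in detached and 6.17, 6.81 and 4.39 CPM in adherent sgNTC cells. The levels were lower in Ifngr1-KO cells in both cultures, and the rise larger by 1.46 ± 0.25 (adjusted p = 4.03e-05). Rsad2 (1.71 ± 0.38, adjusted p = 0.000995) and Oasl1 (1.05 ± 0.22, adjusted p = 0.001), both antiviral effectors, also rose more in Ifngr1-KO cells, while Ifitm3 rose less in Ifngr1-KO cells (-0.59 ± 0.14, adjusted p = 0.00212). Of class I presentation genes 5 of 16 tested were higher and 2 lower, or 3 and 4 under library totals, and 4 were lower with only the compared groups fitted and 5 without the filter, and 1 without adherent Ifngr1-KO replicate 3. Tap2, the peptide transporter subunit, had 7.02, 7.43 and 5.76 CPM in detached and 2.897, 3.202 and 3.903 CPM in adherent Ifngr1-KO cells, against 22.9, 23.3 and 21.8 CPM in detached and 4.96, 4.95 and 4.69 CPM in adherent sgNTC cells, and rose less in Ifngr1-KO cells (-1.2 ± 0.20, adjusted p = 2.23e-05).

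NF-kB targets were higher for 12 and lower for 3 of 23 tested (27 listed). Csf1, the macrophage growth factor, had 59.7, 55.9 and 58.98 CPM in detached and 75.6, 70.2 and 70.99 CPM in adherent Ifngr1-KO cells, against 105, 109 and 105 CPM in detached and 64.8, 67.3 and 62.02 CPM in adherent sgNTC cells. It fell in Ifngr1-KO and rose in sgNTC cells, a difference of -1.02 ± 0.08 (adjusted p = 1.11e-11). Tnfaip2 fell in both lines and fell less in Ifngr1-KO cells (0.87 ± 0.08, adjusted p = 7.68e-11), Nfkbie rose in Ifngr1-KO and fell in sgNTC cells (1.01 ± 0.14, adjusted p = 8.79e-07), and Tnip1 rose in both (0.57 ± 0.09, adjusted p = 4.77e-06). In the complement and acute phase list 2 of 16 tested were higher and 3 lower (5 without the filter on low counts). The 3 lower of each of these lists became 1 without adherent Ifngr1-KO replicate 1. Cd55, which protects cells from complement, had 257, 258 and 272 CPM in detached and 45.4, 48.8 and 47.04 CPM in adherent Ifngr1-KO cells, against 1259.8, 1182 and 1324 CPM in detached and 391, 370.4 and 362 CPM in adherent sgNTC cells. It was higher in every sgNTC library than in the Ifngr1-KO libraries of the same culture, and its rise larger in Ifngr1-KO cells by 0.73 ± 0.09 (adjusted p = 9.11e-08). Of 10 chemokine genes tested 2 were lower in Ifngr1-KO cells, or 1 under the replicate block and when any PBS library was left out other than adherent Ifngr1-KO replicate 2, adherent sgNTC replicate 1 or detached sgNTC replicate 2. Ccl7 had 0.939, 0.715 and 0.866 CPM in detached and 5.77, 4.34 and 4.83 CPM in adherent Ifngr1-KO cells, against 0.0302, 0.1605 and 0.193 CPM in detached and 0.0373, 0.113 and 0.123 CPM in adherent sgNTC cells, a difference of -3.05 ± 0.81 (adjusted p = 0.00425).

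Of 23 fatty acid oxidation genes tested 5 were lower and 2 higher in Ifngr1-KO cells. In each line its median change was upward (0.48 in Ifngr1-KO and 0.48 in sgNTC cells). Cpt1a, the gate of fatty acids into mitochondria, had 149, 163 and 156 CPM in detached and 98.3, 102 and 91.9 CPM in adherent Ifngr1-KO cells, against 232, 228 and 224 CPM in detached and 101, 91.4 and 97.7 CPM in adherent sgNTC cells. It rose in both lines and less in Ifngr1-KO cells (-0.56 ± 0.08, adjusted p = 1.06e-06), as did Acadm (-0.53 ± 0.08, adjusted p = 2.69e-06). Under library totals 10 of 23 were lower and without the filter 3. Leaving out any PBS library other than adherent Ifngr1-KO replicate 1 or adherent sgNTC replicate 2 left 2 or 3 lower. Nuclear oxidative phosphorylation genes were higher for 4 of 34 and mitochondrially encoded genes lower for 2 of 13, which under library totals became 1 higher and 1 lower of 34 and 4 lower of 13, and 7 of 13 were lower without the filter. The 4 nuclear genes that were higher became 2 without adherent Ifngr1-KO replicate 1 or 2, detached Ifngr1-KO replicate 3 or adherent sgNTC replicate 1 or 2. Mitochondrial ribosome genes were higher for 1 and lower for 2 of 20, or 4 lower under library totals. Leaving out 1 PBS library gave 0 to 3 higher and 1 to 3 lower, with 3 higher without adherent Ifngr1-KO replicate 3. Of the mitochondrially encoded genes mt-Nd5, a complex I subunit, rose in both lines and less in Ifngr1-KO cells (-0.43 ± 0.12, adjusted p = 0.00869).

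Lysosome and autophagy genes were higher for 10 and lower for 4 of 29. The 4 became 2 without adherent Ifngr1-KO replicate 1, any detached Ifngr1-KO library, adherent sgNTC replicate 1 or detached sgNTC replicate 3. Npc1, the cholesterol exporter of the lysosome, had 68.7, 74.2 and 70.3 CPM in detached and 117, 126 and 95.8 CPM in adherent Ifngr1-KO cells, against 70.9, 73.97 and 76.5 CPM in detached and 193, 211 and 193 CPM in adherent sgNTC cells. It fell in both lines, less in Ifngr1-KO cells (0.77 ± 0.09, adjusted p = 6.76e-08), and Ulk1, which starts autophagy, rose in both and rose less in Ifngr1-KO cells (-0.67 ± 0.09, adjusted p = 7.23e-07). NRF2, iron and glutathione genes were higher for 12 and lower for 3 of 28, or 5 and 6 under library totals. Beside Slc7a11, they included Nfe2l2, the NRF2 gene itself, which rose in Ifngr1-KO cells and was not called in sgNTC cells (0.58 ± 0.08, adjusted p = 1.70e-06). Heat shock genes were higher for 5 and lower for 1 of 17, or 2 and 1 under library totals, led by the mitochondrial chaperone gene Hspd1 (0.39 ± 0.06, adjusted p = 1.11e-05). The 5 became 3 without adherent Ifngr1-KO replicate 2 or detached sgNTC replicate 1 or 3. Among TGF-beta, BMP and WNT targets 4 of 16 tested (25 listed) were higher and 3 lower, with 1 higher under library totals or without adherent sgNTC replicate 1, and 2 higher without adherent Ifngr1-KO replicate 3 or detached sgNTC replicate 1. Id3, a target of BMP signalling, had 63.2, 59.3 and 57.97 CPM in detached and 40.6, 40.9 and 59.4 CPM in adherent Ifngr1-KO cells, against 112, 101 and 107 CPM in detached and 31.9, 28.3 and 32.1 CPM in adherent sgNTC cells. It rose in both lines and far more in sgNTC cells, a difference of -1.44 ± 0.17 (adjusted p = 1.06e-06), and Id2 (-0.80 ± 0.18, adjusted p = 0.00207) and Smad6 (-0.76 ± 0.21, adjusted p = 0.00503) were lower too.

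Several of the genes with the largest differences were close to silence in at least 1 group. Sgk3, a kinase activated by phosphoinositides, had 0.261, 0.0511 and 0.306 CPM in detached and 0, 0 and 0 CPM in adherent Ifngr1-KO cells, against 10.1, 7.62 and 8.97 CPM in detached and 4.17, 4.53 and 4.45 CPM in adherent sgNTC cells. With 0 counts in the adherent Ifngr1-KO group its rise there was at least 8.31-fold, taking 3 counts over the group as the floor. The error of the 24 counts in the detached group was not allowed for. Muc16, the ovarian tumour antigen CA125, had 1.62, 1.302 and 1.43 CPM in detached and 0.1305, 0.0908 and 0 CPM in adherent Ifngr1-KO cells, against 31.6, 30.3 and 25.7 CPM in detached and 18.1, 15.4 and 18.3 CPM in adherent sgNTC cells. All Ifngr1-KO libraries were far under the sgNTC ones, and the larger rise in Ifngr1-KO cells (3.47 ± 0.77, adjusted p = 0.00205) started from at most 0.130 CPM. Edn2, endothelin 2, and Krt15, a keratin, were lower in adherent Ifngr1-KO than in adherent sgNTC cells and were not called different between the lines when detached. Edn2 had 7.903, 8.81 and 10.6 CPM in detached and 0.104, 0.182 and 0.0513 CPM in adherent Ifngr1-KO cells, against 7.91, 9.07 and 6.48 CPM in detached and 0.894, 1.01 and 1.196 CPM in adherent sgNTC cells, a difference of 3.34 ± 0.46 (adjusted p = 8.76e-07). Krt15 had 10.9, 10.1 and 9.04 CPM in detached and 0.522, 0.727 and 0.822 CPM in adherent Ifngr1-KO cells, against 13.2, 11.99 and 12.3 CPM in detached and 5.11, 7.54 and 5.83 CPM in adherent sgNTC cells, a difference of 2.82 ± 0.25 (adjusted p = 1.35e-10).

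Tlr7, the endosomal sensor of single-stranded RNA, had 1.49, 2.27 and 1.83 CPM in detached and 2.69, 2.57 and 2.11 CPM in adherent Ifngr1-KO cells, against 3.93, 4.57 and 3.29 CPM in detached and 32.05, 26.96 and 31.04 CPM in adherent sgNTC cells. It fell in sgNTC cells and was not called in Ifngr1-KO cells (-0.40 ± 0.21), a difference of 2.53 ± 0.27 (adjusted p = 8.05e-09). Igf1, insulin-like growth factor 1, had 4.49, 3.397 and 3.79 CPM in detached and 4.85, 4.63 and 5.06 CPM in adherent Ifngr1-KO cells, against 1.09, 0.762 and 0.894 CPM in detached and 6.11, 6.87 and 5.92 CPM in adherent sgNTC cells. Only the detached sgNTC libraries were low, and the difference was 2.45 ± 0.26 (adjusted p = 6.36e-09). Prkg2, a cGMP-dependent kinase, had 80.1, 74.6 and 72.4 CPM in detached and 182, 179.7 and 186 CPM in adherent Ifngr1-KO cells, against 33.9, 33.9 and 34.8 CPM in detached and 389, 377 and 376 CPM in adherent sgNTC cells. It was well expressed in all libraries and fell in both lines, with a difference of 2.21 ± 0.10 (adjusted p = 5.73e-17).

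Among genes lower in Ifngr1-KO cells, Star, Matn2, Coq8a, Pnliprp1 and mt-Atp8 rose in sgNTC cells and were not called in Ifngr1-KO cells. Star, which carries cholesterol into mitochondria for steroid synthesis, had 2.45, 4.98 and 3.31 CPM in detached and 2.79, 2.59 and 2.85 CPM in adherent Ifngr1-KO cells, against 68.4, 66.5 and 52.3 CPM in detached and 10.2, 10.6 and 10.5 CPM in adherent sgNTC cells. The detached sgNTC libraries stood far above the other 9, and the difference was -2.2 ± 0.23 (adjusted p = 2.32e-08). Matn2, a matrix adaptor, had 1.2, 0.945 and 0.662 CPM in detached and 0.992, 0.681 and 0.436 CPM in adherent Ifngr1-KO cells, against 18.1, 15.9 and 15.1 CPM in detached and 2.44, 2.17 and 2.24 CPM in adherent sgNTC cells, a difference of -2.42 ± 0.35 (adjusted p = 2.16e-06). Coq8a, needed for coenzyme Q synthesis, differed by -2.16 ± 0.43 (adjusted p = 0.000318). Pnliprp1, a pancreatic lipase relative, had 0.157, 0 and 0.153 CPM in detached and 0, 0 and 0.103 CPM in adherent Ifngr1-KO cells, against 15.7, 11.99 and 11.3 CPM in detached and 0, 0 and 0 CPM in adherent sgNTC cells. Its rise in sgNTC cells was at least 543-fold by the same floor, and the call was lost without the adherent Ifngr1-KO replicate 3 library, which held its only adherent counts.

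Ahsg, the plasma protein fetuin A, had 0.678, 0.434 and 0.306 CPM in detached and 0.0522, 0.2498 and 0.128 CPM in adherent Ifngr1-KO cells, against 84.6, 85.5 and 80.8 CPM in detached and 5.38, 6.45 and 6.17 CPM in adherent sgNTC cells. It rose in both lines, more in sgNTC cells (-2.16 ± 0.53, adjusted p = 0.002), a call lost without the adherent Ifngr1-KO replicate 2 library (adjusted p = 0.154). Gas1, a growth arrest protein and Hedgehog co-receptor, had 0, 0 and 0 CPM in detached and 0.287, 0.0908 and 0 CPM in adherent Ifngr1-KO cells, against 47.8, 55.4 and 50.4 CPM in detached and 18.9, 20.6 and 17.1 CPM in adherent sgNTC cells. It rose in sgNTC cells. In Ifngr1-KO cells the detached group had 0 counts and the adherent group 15, a fall of at least 4.81-fold by the same floor. The error of the 15 counts was not allowed for, and adherent replicate 3 was at 0 as well. By its calls Gas1 belonged to the 122 genes of the opposite class, but its change in Ifngr1-KO cells rests on few counts. Its line difference was not called under IFN-gamma. Eda2r, a receptor of the TNF family, had 0, 0 and 0 CPM in detached and 0.887, 2.02 and 1.44 CPM in adherent Ifngr1-KO cells, against 1.26, 1.26 and 2.08 CPM in detached and 16.3, 18.2 and 20.2 CPM in adherent sgNTC cells. It fell in both lines, at least 57.4-fold in Ifngr1-KO cells. Mtss1l, a membrane-curving actin regulator, had 0.861, 0.485 and 0.942 CPM in detached and 7.39, 6.47 and 7.6 CPM in adherent Ifngr1-KO cells, against 1.29, 0.903 and 0.628 CPM in detached and 1.51, 1.13 and 1.44 CPM in adherent sgNTC cells. It was high in adherent Ifngr1-KO cells alone, a difference of -2.72 ± 0.36 (adjusted p = 4.29e-07). mt-Atp8 had 3.89, 5.18 and 4.86 CPM in detached and 3.76, 1.77 and 2.799 CPM in adherent Ifngr1-KO cells, against 29.3, 31.9 and 49.2 CPM in detached and 3.67, 3.35 and 4.17 CPM in adherent sgNTC cells. Its difference of -2.55 ± 0.57 (adjusted p = 0.00254) is uncertain because the gene overlaps mt-Atp6 and shares its transcript.

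The line difference was then measured in the 12 libraries that received IFN-gamma, which are separate cultures of the same lines. There 4721 genes (32.3%) were called, 2776 higher in Ifngr1-KO cells (19%) and 1945 lower (13.3%). Of the 4068 genes called in PBS, 3171 were called in the same direction, 77.9% of the PBS calls and 67.2% of the IFN-gamma calls, and 2 in the opposite direction. Those 2 were Irf1 and Fam161a. For Irf1, the interferon-induced transcription factor, the difference was 0.44 ± 0.13 (adjusted p = 0.0123) in PBS and -0.45 ± 0.13 under IFN-gamma (adjusted p = 0.00821). For Fam161a it was 0.97 ± 0.36 (adjusted p = 0.0429) in PBS and -1.12 ± 0.37 (adjusted p = 0.017) under IFN-gamma.

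Genes of the opposite class mostly kept their line difference under IFN-gamma. The difference was called in the same direction for 204 of the 210 and for 111 of the 122. Opposite changes in both lines were called again for 153 of the 210 and 69 of the 122. Detachment changed 60.2% of all genes tested in Ifngr1-KO cells under IFN-gamma (29.3% up, 30.9% down) and 64.6% in sgNTC cells (32.6% up, 32% down). Areg differed by 1.59 ± 0.19 under IFN-gamma, Pthlh by 1.2 ± 0.16, Fabp5 by -2.13 ± 0.16 and Akr1c14 by -2.07 ± 0.09. Mitosis genes were higher in Ifngr1-KO cells for 26 of 28 again, cholesterol synthesis genes for 22 of 25 and stress response genes for 23 of 29. A test of the change in the line difference between PBS and IFN-gamma called 0 genes by edgeR and 4 by DESeq2. By edgeR 716 of the 14622 genes tested had an unadjusted p under 0.05, near the share this threshold passes when no gene differs.

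**Figure D5:**
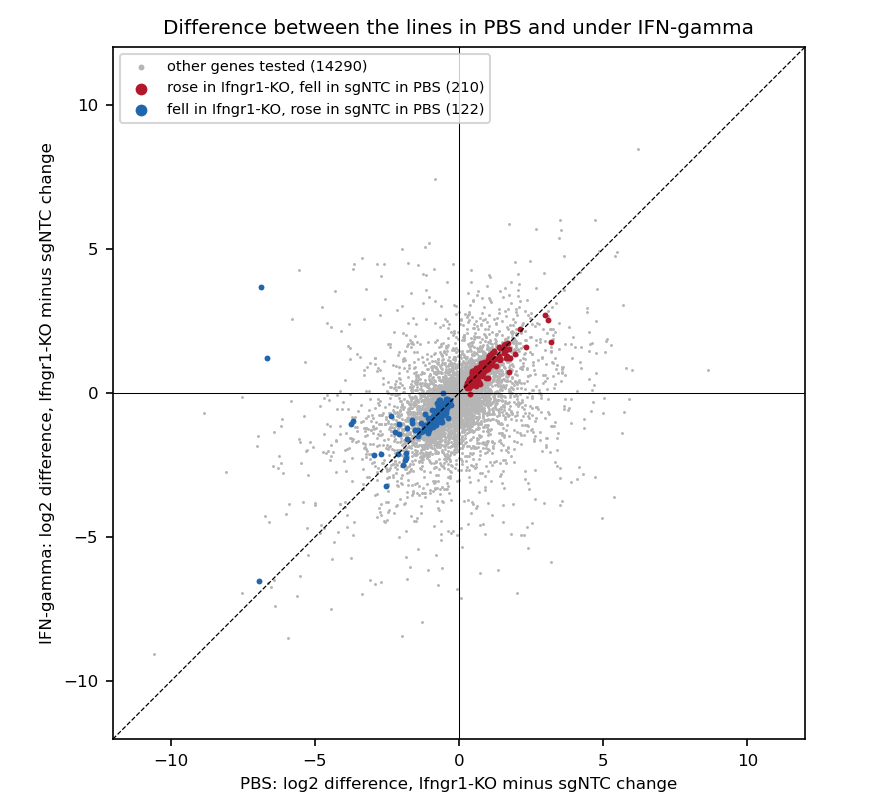
Log2 difference between the lines in the change on detachment, in PBS libraries (x axis) and in IFN-gamma libraries (y axis), for 14622 genes, with the dashed line marking equal values. Genes of the opposite class in PBS (red 210, blue 122) lie along that line, apart from 3 of the blue genes at the left whose PBS difference is below -6, 2 of which lie above 0 under IFN-gamma.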

How the data were processed

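Poly-A RNA of 24 libraries was measured, 3 in each of 8 groups. The authors deposited raw read counts per gene for each library, made with featureCounts 2.1.1 per the file headers, on paired reads with each mate counted and no strand setting. Tools named in the submitters' processing notes are Trimmomatic, HISAT2, SAMtools, featureCounts and DESeq2. With no strand setting, overlapping and antisense genes cannot be told apart. Files list 31062 features, 9 of them transgenes, on GRCm38; 30934 have a symbol and 31011 a position in the annotation.

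Groups came from the sample labels. Counts of all 24 libraries were fitted with 8 group means in edgeR 4.0.16 (R 4.3.3, robust quasi-likelihood test, TMM factors 0.958 to 1.054, filter on expression with a minimum count of 10), which left 14622 genes, 16 residual degrees of freedom and a common biological coefficient of variation of 0.0771. The standard error is the absolute log2 change divided by the square root of F. P-values were adjusted over all genes, and measure the spread between cultures of 1 line per genotype. The fit was tested on simulated data. Alternatives were DESeq2 1.42.0, RLE factors, library totals, no filter, only the compared groups, halved counts, a replicate block and each library left out.

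Named genes were the 10 largest differences each way and 8 opposite genes each way, all averaging 5 CPM or more in a group, with a full symbol and, for opposite genes, no overlap between cultures, up to 4 called members of each list by adjusted p, and Ifngr1, Trp53 and Cas9; some are not reported here. The members and lists were chosen with earlier results of these data known. The 18 same-numbered pairs of PBS libraries had correlations of -0.0325 to 0.0519 in their deviations from the group means, so no shared shift was seen. Whether same-numbered cultures were set up together cannot be told from these values. Promoters are RefSeq windows of GRCm38.p6, from 250 bases before to 50 after the start, available for 10879 genes tested, searched on both strands.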

Additional observations from a re-analysis of the deposited data

Results flagged for a closer look

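The change on detachment differed between Ifngr1-KO and sgNTC cells for 4068 genes by the test of the difference itself (edgeR's quasi-likelihood test, adjusted over all genes). Detachment moved 332 genes in opposite directions, each called in both lines and in the test of the difference.

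Of the genes named by size, those whose log2 difference was higher in Ifngr1-KO cells were Sgk3 (5.14), Derl3 (4.85), Muc16 (3.47), Edn2 (3.34), Krt15 (2.82), Tlr7 (2.53), Slc7a11 (2.49), Igf1 (2.45) and Prkg2 (2.21). Those lower were Pnliprp1 (-10.57), Gas1 (-6.88), Eda2r (-5.38), Mtss1l (-2.72), mt-Atp8 (-2.55), Matn2 (-2.42), Star (-2.20), Coq8a (-2.16), Ahsg (-2.16) and Fabp5 (-2.11). The values of Sgk3, Pnliprp1, Gas1 and Eda2r are fitted against a group at 0 counts, depend on the prior count and are no bounds.

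Of the opposite class, Pif1 (1.71), Mirt1 (1.68), Pthlh (1.64), Fam71f1 (1.59), Shb (1.59), Plau (1.57), Areg (1.57) and Gprc5a (1.40) rose in Ifngr1-KO and fell in sgNTC cells. Fabp5, given above, Zfp950 (-1.84), Akr1c14 (-1.83), Adhfe1 (-1.64), Mpv17l (-1.33), Cxxc4 (-1.06) and Mks1 (-0.93) did the reverse. Of these 33 genes, 27 were called in the same direction in the IFN-gamma libraries, and Sgk3, Pnliprp1, Gas1, Eda2r, mt-Atp8 and Matn2 were not called there.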

How the results depend on the processing

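The count of line differences was within 1.5 times of 4068 under every alternative run, and 3348 to 4053 of the 4068 genes were called in the same direction under the 7 alternatives that leave out no library. Library totals gave 1706 higher and 2356 lower, with the median difference over all genes at -0.08 in place of 0.01. They also gave 131 genes that rose in Ifngr1-KO and fell in sgNTC cells and 187 of the reverse, with 247 of the 332 opposite genes kept. The test of a change in the line difference between PBS and IFN-gamma called 4 genes with DESeq2, 41 without the filter on low counts and 0 to 5 when 1 library was left out. The cause was not tested. Leaving out 1 PBS library gave 3516 to 3999 line differences and 260 to 328 opposite genes, of which 179 to 217 rose in Ifngr1-KO cells and 81 to 112 fell. The 81 came without the detached sgNTC replicate 1 library. The replicate block, which the main fit left out, gave 2434 higher and 1630 lower. Of 163 named genes called, 148 kept their call in every fit and 0 of 165 turned direction. Under library totals Hsp90aa1, Hsp90ab1, Uqcrfs1, Atp5a1, Cycs, Vim, Mrps27 and Trp53 lost it. Genes near 0 counts in a group are limited by depth.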

Other observations

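Areg led to a look at the other ligands of the epidermal growth factor receptor, which was made after the values were seen. Of 7 ligand genes, Areg and another 4 were called higher in Ifngr1-KO cells, where 16.6% of all genes tested were, which leaves Egf and Tgfa not called. The count includes Areg, the starting point. Epgn, Ereg, Areg and Btc lie near each other (chr5:91027464-91402994), so these genes cannot be counted as independent. Ereg, epiregulin, had 99.3, 91.8 and 92.7 CPM in detached and 80.1, 72.2 and 74.3 CPM in adherent Ifngr1-KO cells, against 45.98, 52.2 and 54.7 CPM in detached and 66.9, 56.5 and 59.5 CPM in adherent sgNTC cells, a difference of 0.59 ± 0.17 (adjusted p = 0.0133). Hbegf had 11.8, 10.1 and 10.9 CPM in detached and 6.24, 6.77 and 6.86 CPM in adherent Ifngr1-KO cells, against 12.1, 18.1 and 14.04 CPM in detached and 15.1, 12.8 and 14.9 CPM in adherent sgNTC cells, a difference of 0.68 ± 0.20 (adjusted p = 0.0113). Btc, betacellulin, had 254, 249 and 269 CPM in detached and 19, 20.8 and 22.6 CPM in adherent Ifngr1-KO cells, against 258, 267 and 290.4 CPM in detached and 84.7, 74.1 and 77.8 CPM in adherent sgNTC cells, a difference of 1.85 ± 0.17 (adjusted p = 1.36e-07), and Epgn, epigen, 1.75, 1.48 and 1.76 CPM in detached and 0, 0.0908 and 0.231 CPM in adherent Ifngr1-KO cells, against 1.91, 1.48 and 2.08 CPM in detached and 0.633, 0.675 and 0.337 CPM in adherent sgNTC cells, a difference of 2.21 ± 0.67 (adjusted p = 0.0116). The receptor gene Egfr had 136, 126 and 129 CPM in detached and 155, 151 and 129 CPM in adherent Ifngr1-KO cells, against 120.4, 132 and 116 CPM in detached and 189, 180.2 and 184 CPM in adherent sgNTC cells, a difference of 0.43 ± 0.09 (adjusted p = 0.00022), while Erbb2 and Erbb3 were not called. In the IFN-gamma libraries Hbegf and Epgn were not called.

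Among transgenes, Cas9 had 92.9 to 116 CPM in detached and 65.03 to 74.8 CPM in adherent Ifngr1-KO cells, against 1957 to 2177 CPM in detached and 1172 to 1234 CPM in adherent sgNTC cells. Its change differed between the lines by -0.18 ± 0.11, which was not called (adjusted p = 0.231, edgeR). Under IFN-gamma the Cas9 difference was -0.28 ± 0.11, which was called (adjusted p = 0.0413, edgeR). The fluorescent reporter genes mCherry and RFP differed by 0.39 ± 0.09 (adjusted p = 0.0019) and 0.34 ± 0.09 (adjusted p = 0.0032) in PBS. The transgene PuroR differed alike, by 0.37 ± 0.08 (adjusted p = 0.00065, edgeR). Each of these fell in sgNTC cells and was not called in Ifngr1-KO cells. Opposite genes at low levels included Itgb2 and Cd53, both known from leukocytes and chosen after their values were seen. Itgb2 had 2.95, 2.38 and 1.71 CPM in detached and 0.757, 0.772 and 0.642 CPM in adherent Ifngr1-KO cells, against 0.408, 0.241 and 0.0483 CPM in detached and 0.783, 0.507 and 0.491 CPM in adherent sgNTC cells, a difference of 2.97 ± 0.62 (adjusted p = 0.000333), and Cd53 had 0.626, 0.792 and 0.662 CPM in detached and 0.365, 0.227 and 0 CPM in adherent Ifngr1-KO cells, against 0.257, 0.501 and 0.653 CPM in detached and 0.708, 1.27 and 1.47 CPM in adherent sgNTC cells, a difference of 3.09 ± 0.86 (adjusted p = 0.00626). The leukocyte marker Ptprc was at 0.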
